A study of Sus scrofa with 8 samples.

Results

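Cytosolic ribosomal proteins are the protein parts of the ribosome that makes proteins in the cytoplasm. Their mRNA levels were examined in cultured primary cells from the skeletal muscle of pigs. The members were chosen by symbol, as every row of the deposited gene table whose name starts with RPL, RPS or RPLP and a number, or is RPSA, without the kinases named RPS6K. Of 84 rows that matched, 9 were such kinases, 0 lay on chromosome Y and 0 held a value above 100000. The 75 rows left carried 68 symbols, 42 of the large and 26 of the small subunit, of 25285 genes in the table. Where a symbol had several rows, which happened for 5 symbols, the row with the highest mean was used.

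The study compared undifferentiated with differentiated cells, each from females and males of the strain labelled LYD, with 2 libraries in each of 4 groups. The labels give the tissue as skeletal muscle and the cells as primary cells, and the extraction protocol calls them MuSCs, the usual short form for muscle stem cells. They name no treatment, day of culture or animal age, and nothing says that replicates came from separate animals, so the p-values speak only to variation among these 8 libraries. Values are FPKM, fragments scaled to transcript length and to library size, as the authors deposited them. Differences are given as log2 fold changes of FPKM + 1, differentiated over undifferentiated and averaged over the sexes, with the standard error (SE). The words rose and fell are used where limma's adjusted p was under 0.05.

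A ribosome has a large subunit, which joins amino acids, and a small subunit, which reads the mRNA. Each core ribosomal protein is normally present once per ribosome, with the stalk proteins P1 and P2 as the known exception, so the core genes are usually expressed in a coordinated way. Their mRNAs carry a terminal oligopyrimidine tract at the 5′ end, which ties their translation to mTORC1. Proliferating cells make many ribosomes, and skeletal muscle is known for a few paralogs that replace or accompany a core protein.

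The markers followed the labels. Myogenin (MYOG), a factor of early muscle differentiation, was at 72.4 ± 39.5 FPKM before differentiation and rose to 1152 ± 307 FPKM (SD, n = 4). Of 6 muscle markers tested 5 rose and MYOD1 fell, while PAX7 and MYF5 were not analysed here. All 5 proliferation markers fell. The depth in reads is unknown. Estimated from low values, relative depth ran from 1.67 to 2.26 in undifferentiated libraries and from 1 to 1.62 in differentiated ones, where 1 is differentiated female replicate 1. Summed FPKM of 5 proliferation markers was 94.7 in differentiated male replicate 1 and 32.5 to 38.6 in the other differentiated libraries. Of 8 fibroblast markers 7 were in the table, and their sum was 1458 FPKM in that library and 599 to 1063 in the others. Over the states this sum ran from 368 to 782 FPKM in undifferentiated and from 599 to 1458 FPKM in differentiated libraries. Here 2 markers rose (COL1A1 and COL3A1), 1 fell (COL1A2) and 3 did not pass, while PDGFRA, which defines muscle-resident fibroblasts, had a mean of 0.299 and 1.76 FPKM and reached 4.50 FPKM in differentiated male replicate 1. The 4 endothelial markers found, nearly all PECAM1, summed to 2.25 to 6.31 FPKM and 2.56 to 7.53 FPKM, with VWF, KDR and TEK near 0. The 5 immune markers summed to 0.688 to 1.90 FPKM and 1.42 to 4.57 FPKM, with PTPRC, which defines leukocytes, at most at 0.199 FPKM. The part of other cell types in the results below was not tested, and in bulk RNA fewer cells of a type and less RNA per cell cannot be told apart.

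Most ribosomal protein mRNAs were lower in differentiated cells, by a similar amount. Of the 68 members, 62 reached a mean of 1 FPKM and were tested, and of these 56 fell, 2 rose and 4 did not pass (limma, Benjamini-Hochberg adjusted over 12963 genes). Over all tested genes 31.9% fell and 18.0% rose, and among the 813 whose mean reached 100 FPKM and that never exceeded 100000 FPKM 46.4% fell and 24.7% rose. The median change of the 62 members was -0.80 on the log2 scale, with quartiles of -0.95 and -0.66, against a median of -0.18 over all tested genes. For 54 members all 4 differentiated libraries lay below all 4 undifferentiated ones, and for 2 they lay above, where 30.2% and 17.1% of all tested genes did so. With median-ratio scaling, which sets the typical gene near no change (median 0.02), 49 members fell and 2 rose, where 22.5% of all tested genes fell. The count depended on the scaling. Under quantile normalization of all rows 17 of the 62 members fell and 2 rose, where 25.5% of all tested genes fell, so the members' share of falls was then near that of all genes. Both scalings added after the data were seen gave other counts, with 51 falls under quantile normalization without the rows above 100000 FPKM (27.6% of all tested genes) and 14 falls when libraries were scaled to the summed FPKM of rows never above 100000, where 14.4% of all tested genes fell.

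**Figure D1:**
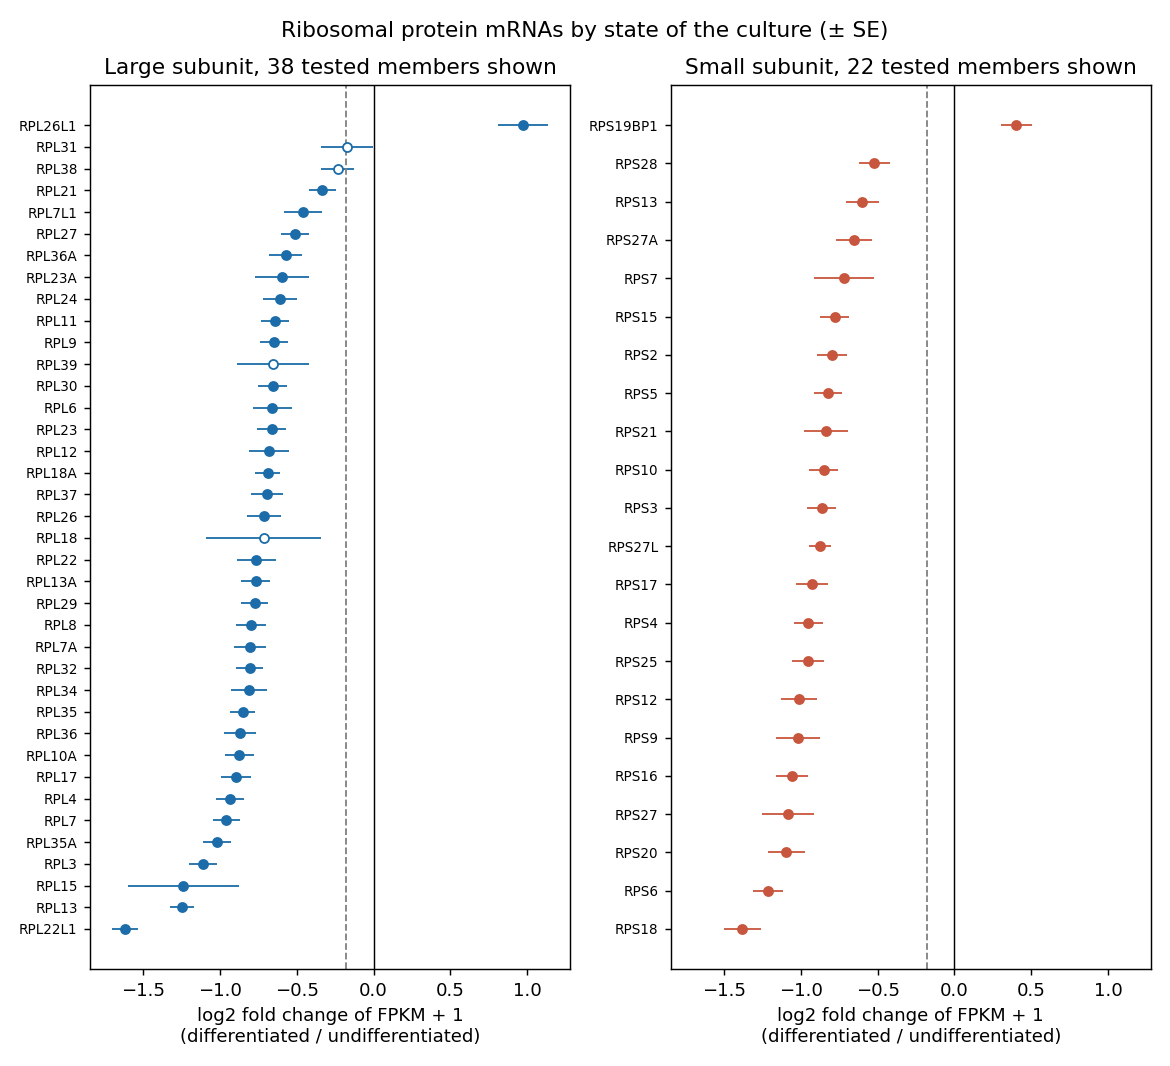
Log2 fold change of FPKM + 1 between the states (x axis) for 38 large and 22 small subunit members (y axis), with bars of 1 SE. Filled points passed limma's adjusted threshold, the dashed line is the median of all tested genes at -0.18, and only RPL26L1 and RPS19BP1 lie right of 0.

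Between the subunits, the small one was lower by more. Of 38 tested large subunit members 33 fell, 1 rose and 4 did not pass, with a median of -0.71. Of 24 tested small subunit members 23 fell and 1 rose, with a median of -0.87. Over all tested genes 31.9% fell and 18.0% rose. Quantile normalization of all rows left 9 large and 8 small subunit falls, where 25.5% of all tested genes fell. Scaling to summed FPKM left 6 and 8, where 14.4% of all tested genes fell. In the values as deposited, leaving out paralogs and RPS19BP1, the medians were -0.72 for 35 core members of the large and -0.90 for 22 of the small subunit. Over all tested members the gap between the median changes was 0.16. Another quantity, the difference between the subunits' median log2 levels in a library, had an SD between replicates of 0.084. That SD belongs to levels in single libraries and is not an error of the gap, which was not tested. Under quantile normalization of all rows the gap turned to -0.036, and under the other scalings tried it was 0.13 to 0.14. Without differentiated female replicate 1 the gap was 0.083.

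Summed over tested members, large subunit FPKM was 39455, 40634, 37499 and 40685 in undifferentiated female replicates 1 and 2 and male replicates 1 and 2. In the differentiated libraries, in the same order, it was 25168, 22421, 22926 and 23232. The differentiated mean was 59.2% of the undifferentiated one, and no library of 1 state reached the range of the other. Small subunit FPKM summed to 47997, 48720, 44915 and 48888 in undifferentiated and to 26316, 24666, 21965 and 23860 in differentiated libraries, or 50.8%. The log2 ratio of large to small was -0.27 ± 0.010 in undifferentiated and -0.04 ± 0.082 in differentiated cells (SD, n = 4). This ratio does not depend on the scaling of a library as a whole, and every differentiated library was above every undifferentiated one. It was spread most by RPS27, which alone held 11.6% to 12.3% of the members' summed FPKM in undifferentiated libraries, up to 13.3% in the differentiated females and 7.18% in differentiated male replicate 1. Without RPS27 the ratio was 0.09 ± 0.013 against 0.30 ± 0.021 (SD, n = 4). No test was made over these sums, since the members were chosen as a list.

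**Figure D2:**
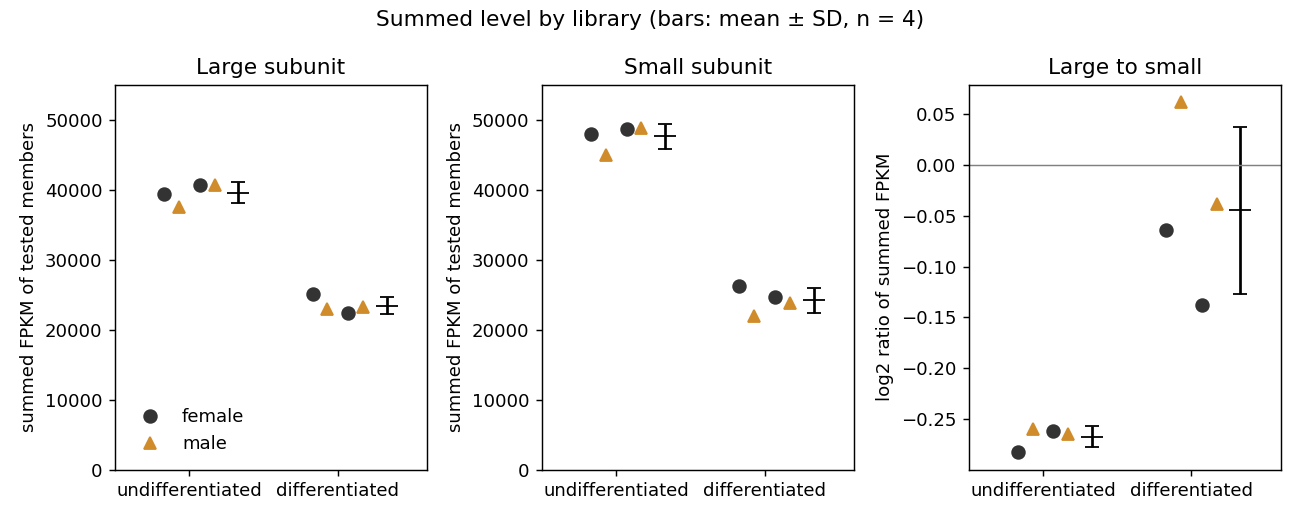
Summed FPKM of the tested large (left) and small (middle) subunit members and the log2 ratio of the sums (right, y axis not starting at 0), for each library by state (x axis); circles are females, triangles males, and bars give the mean ± SD (n = 4). Both sums were lower in all 4 differentiated libraries, and the ratio was highest in differentiated male replicate 1 at 0.06.

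Listed levels differed widely between the tested members, which include paralogs and RPS19BP1, although core proteins are mostly present in equal number. Mean FPKM, which is per length, ran from 1.15 to 7798 over the 62 tested members, 56 of which exceeded 100 and 24 of which exceeded 1000. The lowest was the row named RPL18, while a row without a symbol, described as L18, had a mean of 1045 FPKM. The low end of the range thus depends on which row carries the symbol. Among the highest were RPS27 and RPS20 of the small subunit, and of the large subunit RPL22, RPL36 and RPL24. The SD of log2 levels among members was 2.21 to 2.28 in undifferentiated and 2.09 to 2.15 in differentiated libraries. Across 57 core members Spearman's rho between mean FPKM and the log2 change was -0.34, a description over genes of the same libraries.

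In the small subunit the largest fall was that of RPS18, a head protein near the contact with the large subunit (ENSSSCG00000001502, Sscrofa10.2 chromosome 7). It stood at 3434, 3554, 3136 and 3666 FPKM in undifferentiated cells and at 1563, 1271, 1272 and 1204 FPKM in differentiated ones, in the order above. The states did not overlap (log2 -1.38 ± 0.122 SE, limma adjusted p = 0.000395), but under quantile normalization of all rows the call ended (log2 -0.63, limma adjusted p = 0.306). RPS6, the main ribosomal substrate of the S6 kinases, was at 2375, 2419, 2247 and 2541 FPKM and fell to 1084, 1015, 1019 and 1004 FPKM (log2 -1.22 ± 0.097 SE, limma adjusted p = 0.000288). Again the states did not overlap, and under quantile normalization of all rows the call ended (log2 -0.72, limma adjusted p = 0.0987). RPS20, a head protein, went from 5660, 5720, 5439 and 5447 to 2759, 2363, 2529 and 2796 FPKM (log2 -1.09). Its call ended under quantile normalization of all rows, where the change was -0.047 (limma adjusted p = 0.964), and with scaling to summed FPKM (limma adjusted p = 0.0651). RPS16 fell from 172 ± 12.5 to 82.6 ± 12.6 FPKM (SD, n = 4, log2 -1.06).

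RPS27, a zinc-binding protein and the most abundant member, was at 10769, 10604, 10143 and 10413 FPKM in undifferentiated cells. In differentiated cells it was at 6249 and 6258 FPKM in the females, but at 3223 and 4727 FPKM in male replicates 1 and 2. All 4 were below the undifferentiated libraries, and the lowest was the differentiated library with the most proliferation and fibroblast marker FPKM among the differentiated ones (log2 -1.08 ± 0.167 SE, limma adjusted p = 0.00288). Under quantile normalization of all rows its change was 0.32 (limma adjusted p = 0.823), and with scaling to summed FPKM it did not pass (log2 -0.92, limma adjusted p = 0.0887). Its change was -0.77 in females and -1.40 in males, a difference that did not pass (limma adjusted p = 0.822). RPS7 fell with a log2 of -0.72 (limma adjusted p = 0.0238), a call that ended under every other scaling tried. Under quantile normalization of all rows its change was -0.090 (limma adjusted p = 0.871), and without rows above 100000 FPKM -0.37 (limma adjusted p = 0.165). Median-ratio scaling gave -0.49 (limma adjusted p = 0.0715) and scaling to summed FPKM -0.56 (limma adjusted p = 0.253). With 1 library left out its log2 ran from -0.88 to -0.56. Smaller falls were those of RPS28 (log2 -0.52) and RPS13 (log2 -0.60). RPS28, at the mRNA exit site, was at 650 to 714 FPKM and at 396 to 600 FPKM, and its call ended under quantile normalization of all rows (limma adjusted p = 0.255) and with scaling to summed FPKM (limma adjusted p = 0.330). Of 5 tested proteins at the mRNA entry and exit sites all fell, with a median of -0.82.

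In the large subunit RPL13 fell from 710, 740, 657 and 711 FPKM to 322, 319, 270 and 274 FPKM (log2 -1.25 ± 0.078 SE, limma adjusted p = 0.000121). The states did not overlap. RPL3, a protein next to the peptidyl transferase centre, was at 1214, 1170, 1075 and 1023 FPKM and fell to 559, 488, 528 and 498 FPKM (log2 -1.11 ± 0.091 SE, limma adjusted p = 0.000311). RPL35A fell from 1209 ± 37.7 to 598 ± 80.7 FPKM (SD, n = 4, log2 -1.02), a call that ended under quantile normalization of all rows (log2 -0.53, limma adjusted p = 0.0966). RPL13 and RPL3 passed under every scaling tried. RPL15 was low, at 21.6, 21.2, 11.8 and 27.9 FPKM, and fell to 13.5, 5.95, 4.97 and 8.93 FPKM with overlapping states (log2 -1.24 ± 0.361 SE, limma adjusted p = 0.0304). That call ended when 1 library was left out for 5 of the 8 (limma adjusted p up to 0.0912), and with median-ratio scaling (limma adjusted p = 0.0574). Among the most abundant, RPL22 fell from 4291 ± 210 to 2536 ± 268 FPKM, RPL36 from 3554 ± 111 to 1951 ± 219 FPKM and RPL24 from 2571 ± 149 to 1684 ± 111 FPKM (SD, n = 4). Their log2 changes were -0.76, -0.87 and -0.61, and under quantile normalization of all rows they were 0.26, 0.13 and 0.44 and did not pass. With scaling to summed FPKM none of these 3 passed either.

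By place in the large subunit, 6 of 8 tested proteins of the peptide exit tunnel fell and 2 did not pass, with a median of -0.74. Both tested proteins that bind 5S rRNA fell, RPL11 from 1015 ± 73.5 to 649 ± 29.5 FPKM (SD, n = 4) and RPL5, a row without a symbol in the table, from 1822 to 1084 FPKM. RPL12, at the base of the stalk, fell from 697 ± 21.8 to 437 ± 62.9 FPKM (SD, n = 4, log2 -0.68). Both RPL11 and RPL12 lost their call under quantile normalization of all rows (limma adjusted p = 0.293 and 0.208) and with scaling to summed FPKM (limma adjusted p = 0.176 and 0.196). Of 16 tested genes that are mutated in Diamond-Blackfan anaemia, an inherited failure of red cell production, 13 fell and 3 did not pass, with a median of -0.74, where 31.9% of all tested genes fell. One of the 3 was the near-0 row named RPL18, while the row described as L18 fell (log2 -0.76, limma adjusted p = 0.000967).

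The 4 members that did not pass were RPL31, RPL38, RPL39 and RPL18, and they are named because they are few. RPL38, known for its part in translating Hox mRNAs in embryos, stood at 601, 608, 561 and 593 FPKM and at 506, 394, 581 and 548 FPKM. Of the differentiated libraries male replicate 1 lay within the undifferentiated range and the other 3 lay below it (log2 -0.23 ± 0.108 SE, limma adjusted p = 0.118). The change was -0.44 in females and -0.03 in males, a difference that was not called (limma adjusted p = 0.822), and without differentiated female replicate 1 RPL38 fell (log2 -0.32, limma adjusted p = 0.039). RPL39, a small X-linked protein of the exit tunnel, was at 461, 407, 435 and 515 FPKM and at 470, 243, 287 and 208 FPKM. Differentiated female replicate 1 alone lay among the undifferentiated libraries (log2 -0.66 ± 0.233 SE, limma adjusted p = 0.0584), and without it RPL39 fell (log2 -0.89, limma adjusted p = 0.0112). It also passed when rows above 100000 FPKM were left out of the fit (limma adjusted p = 0.0414).

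RPL31 lies at the tunnel exit, and its row used here, on a scaffold, was at 28.9 ± 5.49 and 25.3 ± 3.19 FPKM (SD, n = 4, log2 -0.18, limma adjusted p = 0.423). With median-ratio scaling its change was 0.045. Its other row, on chromosome 3, was at 16.8 to 23.3 FPKM in undifferentiated cells and fell to 8.15 to 14.9 FPKM (log2 -0.81, limma adjusted p = 0.0213), and the sum of both rows did not pass (log2 -0.42, limma adjusted p = 0.0946). Such rows may be similar in sequence, which was not compared here. Ribosomal proteins have many processed pseudogenes, so reads may be split between rows. RPS21 shows the same limit, since the row used fell from 582 ± 90.4 to 328 ± 61.1 FPKM (SD, n = 4) while a row of 345 bp on chromosome 7 was at 290 to 361 and at 256 to 319 FPKM. The row named RPL36A lies on chromosome 1 and fell with a log2 of -0.57, and whether it measures RPL36A or its paralog RPL36AL is not settled here. Its call ended under quantile normalization of all rows (limma adjusted p = 0.166) and with scaling to summed FPKM (limma adjusted p = 0.292).

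Paralogs of core proteins moved in both directions. RPL22L1, the paralog of RPL22 (ENSSSCG00000027441, chromosome 13, 118437979 to 118499704), was at 258, 247, 234 and 259 FPKM and fell to 86.4, 76.3, 78.3 and 80.9 FPKM. This was the largest fall of the members, with little spread in either state (log2 -1.62 ± 0.084 SE, limma adjusted p = 5.9e-05). The log2 ratio of RPL22L1 to RPL22 went from -4.10 ± 0.049 to -4.96 ± 0.120 (SD, n = 4), without overlap. RPL22 itself fell as well.

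RPL26L1, the paralog of RPL26 (ENSSSCG00000016989, chromosome 16, 55580786 to 55590313), went the other way. Its undifferentiated values were 102, 122, 124 and 103 FPKM, and it rose to 330, 274, 133 and 199 FPKM (log2 0.97 ± 0.163 SE, limma adjusted p = 0.00392). Both differentiated females were above both differentiated males, and the lowest of the 4 was male replicate 1. The change was 1.42 in females (limma adjusted p = 0.0056) and 0.52 in males (limma adjusted p = 0.13), and the difference between the sexes was not called (0.90 ± 0.325 SE, limma adjusted p = 0.808). RPL26 itself fell from 1673 ± 150 to 1021 ± 92.8 FPKM (SD, n = 4), so the log2 ratio of paralog to core went from -3.88 ± 0.233 to -2.19 ± 0.683 (SD, n = 4). The fall of RPL26 did not pass under quantile normalization of all rows (limma adjusted p = 0.584) or with scaling to summed FPKM (limma adjusted p = 0.157). The proteins are close in sequence, and reads shared between the genes cannot be told apart here. The rise of RPL26L1 passed under every scaling tried and with any 1 library left out.

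RPS27L, a paralog of RPS27 known as a p53 target, fell from 34.8, 35.8, 36.3 and 33.6 to 17.5, 18.0, 19.8 and 19.5 FPKM (log2 -0.88 ± 0.074 SE, limma adjusted p = 0.000344). Its ratio to RPS27 overlapped between the states. RPL7L1, a nucleolar relative of RPL7, was at 32.2, 28.4, 31.0 and 25.5 FPKM and fell to 20.3, 19.4, 25.4 and 19.1 FPKM (log2 -0.46, limma adjusted p = 0.0237). That was less than RPL7, whose log2 was -0.96, and the ratio of the pair was higher in every differentiated library. The call of RPL7L1 ended in 5 of 8 fits that left out a library, where its log2 ran from -0.56 to -0.36. It also ended under every other scaling tried. The limma adjusted p was 0.145 with median-ratio scaling and 0.392 with scaling to summed FPKM. Under quantile normalization it was 0.0958 with all rows and 0.0746 without rows above 100000 FPKM. RPL10L was below the minimum, at 0 to 1.32 FPKM and at most 2.06 FPKM. RPL3L and RPL39L, which are paralogs of RPL3 and RPL39, were not analysed here, and no row named RPL36AL was used.

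RPS19BP1 bears the prefix but is a partner of RPS19 that also regulates the deacetylase SIRT1, not a part of the ribosome. It was at 13.5, 16.6, 15.3 and 13.9 FPKM and rose to 22.3, 21.5, 17.1 and 19.0 FPKM, without overlap (log2 0.40 ± 0.101 SE, limma adjusted p = 0.0177). Its call ended in 4 of 8 fits that left out a library, where its log2 ran from 0.34 to 0.47. It also ended with scaling to summed FPKM (log2 0.56, limma adjusted p = 0.0812). The other 60 tested members all had a change below 0.

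**Figure D3:**
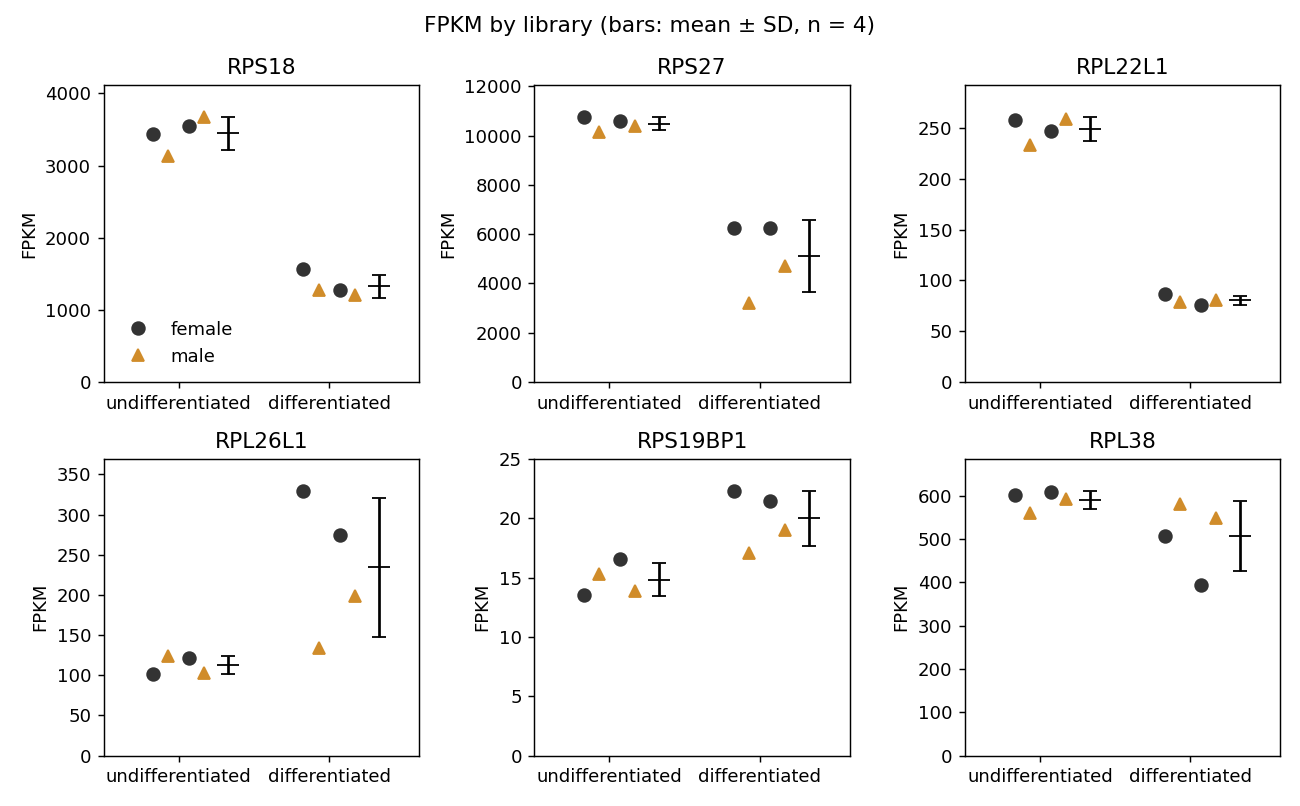
FPKM (y axes, from 0) in each library by state (x axes) for 6 members; circles are females, triangles males, bars the mean ± SD (n = 4). RPS18, RPS27 and RPL22L1 are lower in all differentiated libraries, RPL26L1 and RPS19BP1 are higher in all, and RPL38 overlaps.

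Within females 50 of 62 members fell and 2 rose, and within males 51 fell and 0 rose, where 23.3% and 20.1% of all tested genes fell and 12.5% and 12.9% rose. Medians were -0.76 in females and -0.80 in males. In the test of females against males, averaged over the states, 0 of 62 members were called by limma, where 0.0849% of all tested genes were. With 62 genes a count of 0 is near that background, and with 2 libraries per group it does not show that the sexes are alike. For the difference of the state effect between the sexes the count was also 0, against 0.0231%. At an unadjusted p under 0.05 each test held 1 member, in both cases RPL26L1, and 9.73% and 6.03% of all genes. The X-linked RPS4, which the identifier table calls RPS4X, fell from 1338 ± 86.2 to 694 ± 84.4 FPKM (SD, n = 4), by -1.15 in females and -0.76 in males on the log2 scale. Its call over both sexes ended under quantile normalization of all rows (limma adjusted p = 0.0970) and with scaling to summed FPKM (limma adjusted p = 0.0553).

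For 6 members the row chosen by symbol was too low to test. RPL28, RPL37A and RPS15A were listed at 0 in all 8 libraries. RPLP2 was listed at 0 except for 1.14 FPKM in differentiated male replicate 1, and RPS19 at 0 except for 1.35 and 1.71 FPKM in the differentiated females. RPL10L is described above. An exact 0 can be a failed estimate, and for RPLP2 a row without a symbol, but with that name in the identifier table, stood at 3500 FPKM in undifferentiated cells. The row named RPL18 was likewise at 0.402 to 2.44 FPKM and 0 to 1.40 FPKM, while an unnamed row described as L18 was at 1313 FPKM. Low values are given for these rows only.

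Rows without a symbol, which the choice by name did not take, gave further ribosomal proteins, found from the identifier table or the description. Among these RPL18, RPLP2 and RPS6 are also members, each by another row. Of the 12 proteins found this way 10 were tested, and 7 fell, 1 rose and 2 did not pass, with a median of -0.72. Over all tested genes 31.9% fell and 18.0% rose. These calls are for the values as deposited, and other scalings of these rows are not given here. RPLP1, a stalk protein, was at 9070, 9694, 7773 and 9350 FPKM and fell to 6499, 5963, 4946 and 5037 FPKM (log2 -0.68, limma adjusted p = 0.00827). RPLP2, its partner, fell by 0.56, RPL18 by 0.76, RPS23 by 0.92 and RPS3A by 0.91 on the log2 scale. RPS24 was at 3504 to 3796 FPKM and at 2297 to 3241 FPKM without overlap, and did not pass (log2 -0.34, limma adjusted p = 0.0617). RPL14 did not pass either (log2 -0.63, limma adjusted p = 0.0619). The row that rose was a low one, described as RPSA and spanning 106691 bp, at 0.181 to 0.732 FPKM and 1.49 to 2.75 FPKM.

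Among ribosomal proteins with other kinds of names, GNB2L1 and FAU fell. GNB2L1, now called RACK1, a scaffold on the small subunit, fell from 2278 ± 166 to 1178 ± 78.7 FPKM (SD, n = 4, log2 -0.95). FAU, which encodes a ubiquitin-like protein fused to S30, fell from 1064 ± 66.4 to 693 ± 132 FPKM (SD, n = 4, log2 -0.63). RPS27A, a member that encodes ubiquitin fused to a small subunit protein, fell by 0.66 on the log2 scale, but its change was 0.28 under quantile normalization of all rows (limma adjusted p = 0.554).

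Other genes of ribosome making and use were read against the 31.9% of all tested genes that fell. Of 11 tested mRNAs that share the terminal oligopyrimidine tract, 10 fell and 1 did not pass, with a median of -0.82. PABPC1, the poly(A) binding protein, fell from 733 ± 50.2 to 274 ± 66.7 FPKM (SD, n = 4, log2 -1.45), HNRNPA1, a splicing factor, had a log2 of -1.09, and EIF3H did not pass (log2 -0.11). Of 15 genes of RNA polymerase I and rDNA transcription 7 fell and 8 did not pass (median -0.33). Among them MYC, a driver of ribosome production, fell from 161 ± 30.1 to 45.3 ± 7.45 FPKM (SD, n = 4, log2 -1.80) and TAF1C, a subunit of the promoter factor SL1, had a log2 of -1.26.

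Of 12 tested genes of small subunit assembly 10 fell and 2 did not pass (median -0.58), with FBL, which methylates rRNA, at -0.87 and RCL1 also at -0.87. In large subunit assembly 11 of 18 fell, 1 rose and 6 did not pass (median -0.58). MRTO4, a nucleolar relative of the stalk protein P0, fell by 1.19 and RRS1 by 0.80, while SBDS, which helps release EIF6 from the new large subunit, rose from 40.5 ± 2.54 to 52.0 ± 3.96 FPKM (SD, n = 4, log2 0.35). Of 12 genes of mTORC1 and its targets, a list that also holds the ERK-activated kinases RPS6KA1 and RPS6KA3, 6 fell, 1 rose and 5 did not pass (median -0.39). The one that rose was RPS6KB1, the S6 kinase that phosphorylates RPS6, from 15.4, 18.6, 16.7 and 15.4 to 44.1, 41.8, 48.8 and 49.6 FPKM (log2 1.43 ± 0.092 SE, limma adjusted p = 0.000134). EIF4EBP1, an inhibitor of cap-dependent translation, fell from 359 ± 24.1 to 112 ± 24.2 FPKM (SD, n = 4, log2 -1.69), and LARP1, which binds oligopyrimidine tracts, by 0.77. The mRNAs of RPS6 and of this kinase differed in direction.

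**Figure D4:**
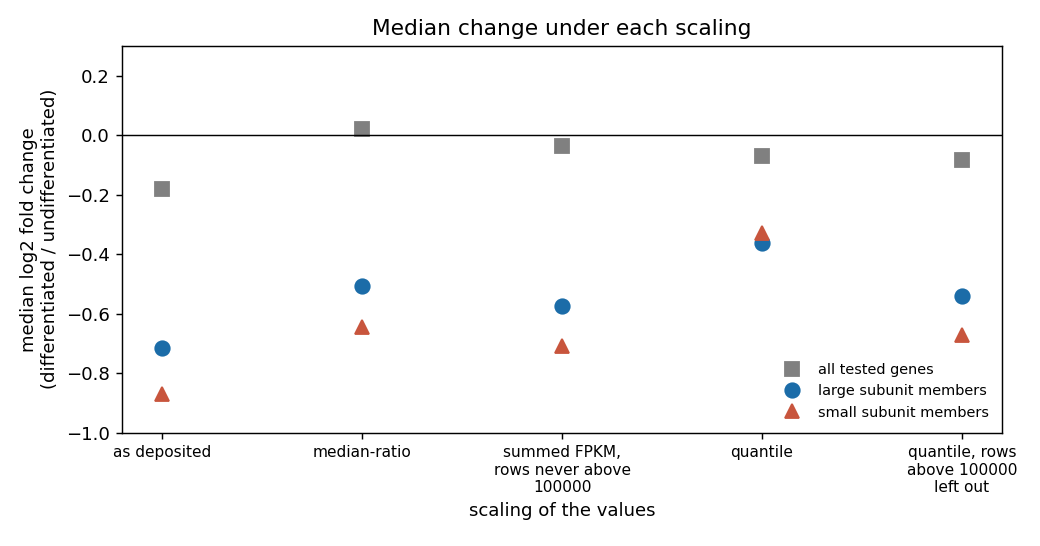
Median log2 fold change between the states (y axis) of all tested genes (grey squares), 38 large (circles) and 24 small subunit members (triangles) under 5 ways of scaling the values (x axis). Both subunit medians lie below that of all genes and below 0 under each scaling, from -0.33 to -0.87.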

How the data were processed

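RNA was sequenced as 100-bp paired ends from libraries of a low-input, strand-specific kit for total RNA, per the labels' protocols, while the labels give the molecule as polyA RNA. Per the submitters' processing notes, the authors worked with Cufflinks 2.2.1, TopHat2 2.0.12.1, cutadapt 1.6 and the build Sscrofa10.2, and deposited FPKM per gene and library. Settings and the scaling total are not given in the sources used here. Of 25285 rows, 218 held a value above 100000 FPKM.

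Values were taken as log2(FPKM + 1), and the 12963 genes whose mean reached 1 FPKM were fitted together with limma 3.58.1 in R 4.3.3, with 1 mean per group of 2 libraries and a mean-variance trend (4 residual and 2.09 prior degrees of freedom). P-values are two-sided and adjusted by the method of Benjamini and Hochberg over all tested genes. The fit was tested on simulated data, where it called most of the largest changes and missed most of the smallest, so a gene that did not pass may still have changed. Relative depth came from the commonest ratio of low values between each of 28 pairs of libraries, with a largest misfit of 0.065 on the log2 scale.

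The members and lists were chosen with earlier results of these data known. Named were the paralogs, the 5 largest rises and falls and 3 highest levels in each subunit, members below the minimum, and the 2 largest changes each way in the other lists. Some single genes are not reported here but count in totals. Further genes in the text were picked with their values in view. The identifier table held 21 of the 68 members and agreed on 20 symbols. Alternatives were another pseudocount, no filter, other scalings, a block, summed rows, and each library left out.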

Additional observations from a re-analysis of the deposited data

Results flagged for a closer look

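Among 120 groups of 4 libraries (60 tested members in 2 states), 7 held a library far from the other 3, where chance flags about 1 in 20 groups, or 6 here. Differentiated female replicate 1 was the high one for RPL23A (112 FPKM against 67.7 to 72.3), RPL29 (291 against 259 to 264) and RPL9 (394 against 357 to 361). It was also the differentiated library in which 30 of 62 members were highest. Undifferentiated male replicate 1 was the low one for RPL11 (905 FPKM against 1046 to 1057) and RPL8 (1636 against 1810 to 1836), and 45 of 62 members were lowest in that library among the undifferentiated ones. Differentiated male replicate 2 was low for RPL27 (498 FPKM against 581 to 591), and differentiated male replicate 1 for RPL31 (20.5 against 26.6 to 27.0).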

How the results depend on the processing

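The medians of both subunits stayed below 0 under every alternative run. For the large subunit the median was -0.51 with median-ratio scaling, -0.36 with quantile normalization, -0.54 with the same after leaving out rows above 100000 FPKM, and -0.57 scaled to the summed FPKM of rows never above 100000. For the small subunit these were -0.65, -0.33, -0.67 and -0.71. The last 2 of these scalings were chosen after seeing the data. Quantile normalization of all rows left 9 large and 8 small subunit falls, and scaling to summed FPKM left 6 and 8 (14 members in all), with 1869 falls over all genes and no rise in the small subunit (0). That sum spread from 791599 to 1112343 within the undifferentiated libraries alone. Quantile normalization turned the gap between the subunits (-0.036). Among single members it also turned RPL22 (0.26), RPL24 (0.44), RPL36 (0.13), RPL38 (0.091), RPL6 (0.17), RPS2 (0.078), RPS27 (0.32) and RPS27A (0.28), none of which passed, and median-ratio scaling turned RPL31 (0.045). Median-ratio scaling moved the share of falls among all calls from 63.9% to 47.6%. The cause of these changes was not tested.

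Leaving out 1 library gave large subunit medians of -0.79 to -0.69 and 0 or 1 rise in the small subunit, and 51 of the 56 falls passed in each of the 8 fits. There the remaining library of a group is assumed to vary like the other groups. Leaving out paralogs gave 0 rises in the large subunit, and leaving out paralogs and RPS19BP1 gave 0 in the small one. The replicate block by sex and replicate number gave 33 and 23 falls and changed no member's call. Same-numbered libraries deviated together with r = 0.071 in females and -0.057 in males, so the numbers are not shown to pair the libraries. The block could not be fitted with sex. A pseudocount of 0.1, no filter on low values and summed rows changed no member's call.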

Other observations

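RPS7 was lowest in female replicate 2 in both states, at 1246 FPKM against 1717 to 1864 in the other undifferentiated libraries and at 785 FPKM against 1017 to 1219 in the other differentiated ones. It was singled out after its values were seen.

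The effects in females and in males were alike in order over the 57 core members (Spearman's rho 0.60, with each sex using its own 4 libraries and all members sharing them).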
